A study of Xenopus tropicalis x Xenopus laevis and Xenopus laevis and Xenopus tropicalis with 8 samples.

Results

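The te x ls hybrid, in which an *X. tropicalis* egg is fertilized by *X. laevis* sperm, was set against *X. tropicalis* embryos, whose egg and sperm are both of that species. The comparison took 4 of the 8 libraries of the series, te x ls replicates 1 and 3 and *X. tropicalis* replicates 1 and 3, each from polyadenylated RNA of whole embryos at 9 h post-fertilization (stage 9). The te x ls cross is inviable, and its embryos die at about the time when the embryo's own genome switches on. The labels do not say whether the libraries of a group came from separate clutches, so the p-values measure only the spread between these libraries. In both groups the egg, and with it the stored RNA, is that of *X. tropicalis*. The groups differ in the sperm, which brought *X. laevis* chromosomes into te x ls embryos and *X. tropicalis* chromosomes into *X. tropicalis* embryos. Of the 34647 transcripts in the table, the comparison kept those that reached 1 TPM (a read count scaled by transcript length and library total) in 2 or more libraries out of 4, namely 514 *X. laevis* transcripts, of the species of the sperm, and 11559 *X. tropicalis* transcripts, of the species of the egg. They carried 381 and 10039 gene symbols. Counts were made for each species apart, while the limma test below was fitted and adjusted over both species together.

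Early frog embryos divide rapidly on RNA and protein laid down in the egg, and transcription from the embryo's own chromosomes starts at the midblastula transition. The first genes to be transcribed include homeobox factors of the organizer, the dorsal signalling centre, such as *sia*, *gsc* and *not*, and targets of BMP signalling that oppose them on the ventral side, such as *ventx* and *id3*. They also include Nodal ligands and the *mix* and *bix* factors of mesoderm and endoderm, and factors of the early ectoderm such as *zic* and *sox2*. An *X. laevis* transcript in a te x ls embryo can come from the chromosomes of the sperm, from RNA carried in with the sperm or from a background that *X. tropicalis* embryos show too, while an *X. tropicalis* transcript can be egg RNA or new RNA. *X. laevis* is an allotetraploid, and many of its genes exist as a pair of related copies, so that several *X. laevis* transcripts can share a symbol.

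*X. laevis* transcripts held 0.355% and 0.429% of the TPM of te x ls replicates 1 and 3, against 0.124% and 0.230% in *X. tropicalis* replicates 1 and 3. The groups did not overlap. The means were 0.392% ± 0.0522 in te x ls and 0.177% ± 0.0753 in *X. tropicalis* (SD, n = 2 each), and the exact two-sided permutation test gave p = 0.3333, the smallest p that 2 against 2 libraries allow. A few *X. laevis* transcripts made up much of the background in *X. tropicalis* embryos. The transcript named *mt-atp6* stood at 0 and 0.890 TPM in te x ls, against 0 and 495 TPM in *X. tropicalis*. It was listed at 0 in both *X. laevis* libraries too. *X. laevis eif1b*, a translation initiation factor, stood at 98.2 and 117 TPM in te x ls, against 98.8 and 116 TPM in *X. tropicalis*. Without the 10 most abundant *X. laevis* transcripts the share was 0.302% and 0.363% in te x ls, against 0.0670% and 0.1002% in *X. tropicalis*. The 10 left out also held a *ventx2* transcript at 24.5 and 56.0 TPM in te x ls, against 0.106 and 0.331 TPM in *X. tropicalis*. Depth is unknown in TPM, but the lowest TPM values place the reads of *X. tropicalis* replicate 3 at 0.323 times those of *X. tropicalis* replicate 1, and those of te x ls replicates 1 and 3 at 1.52 and 1.12 times. Differences below are log2(TPM + 1) of te x ls minus *X. tropicalis*, a scale that understates the difference of a transcript of low TPM.

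A total of 362 *X. laevis* transcripts, 70.4% of the 514, were higher in te x ls by a margin of more than 1 on the log2 scale between the lower te x ls library and the higher *X. tropicalis* library, which is called apart by more than 2-fold here. None was lower by this margin. The filter fixed this direction for 360 of the 362, which reached 1 TPM only in te x ls, so the count is a description and not a test. Of the 362 transcripts, 258 were listed at 0 in both *X. tropicalis* libraries. All 362 were still apart when *X. tropicalis* replicate 3, the shallowest library, was left out. That outcome was fixed in advance, because leaving out an *X. tropicalis* library cannot narrow the gap. When a te x ls library is left out, the filter keeps almost none of them, and 3 transcripts were apart without te x ls replicate 1 and 2 without te x ls replicate 3. Just inside the margin the gap between groups was 1.001 and just outside it was 0.995. The 362 transcripts carried 253 symbols, with 83 symbols represented by 2 to 4 transcripts, and 19 transcripts had no symbol. Levels were low, with a median of 2.497 TPM in te x ls replicate 1 and 3.22 TPM in te x ls replicate 3, and 18 transcripts reached 10 TPM in both te x ls libraries. Within numbers 1 and 3 taken separately, 370 *X. laevis* transcripts (72.0%) were more than 2-fold higher in te x ls within both. Without overlap of the groups, 414 (80.5%) were higher and 21 (4.09%) were lower.

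**Figure D1:**
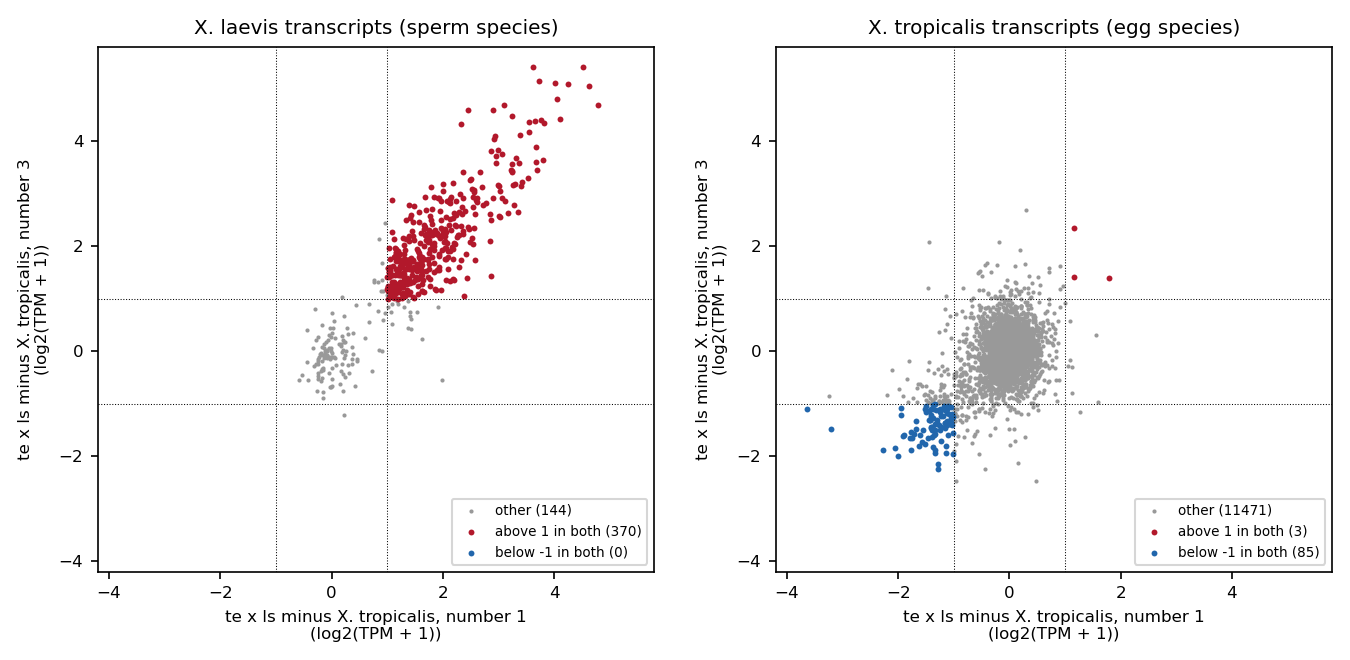
Difference of te x ls minus *X. tropicalis* on log2(TPM + 1) within number 1 (horizontal axis) and within number 3 (vertical axis) for each transcript tested, with *X. laevis* transcripts on the left, *X. tropicalis* transcripts on the right and dotted lines at 1 and -1. On the left 370 points lie above 1 within both numbers and 0 below -1; on the right 85 lie below -1 within both and 3 above 1.

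The limma test over all 12073 transcripts called 0 transcripts of either species at an adjusted p under 0.05 with more than a 2-fold difference, and the lowest adjusted p (Benjamini-Hochberg) was 0.0609. At an unadjusted p under 0.05, 396 *X. laevis* transcripts were higher (77.0%) and 1 was lower (0.195%), and 20 *X. tropicalis* transcripts were higher (0.173%) and 148 were lower (1.28%). For *X. laevis* transcripts the filter fixed most of this balance too, so that their p-values are a description. Without *X. tropicalis* replicate 3, 30 *X. laevis* transcripts passed the adjusted threshold. The 0 calls depend on the fit, which left the replicate number out. Taking the number into account, limma passed 327 transcripts of *X. laevis* as higher. Of *X. tropicalis* it passed 122 as lower and 5 as higher. What the number marks is not stated in the labels, so that fit was kept as an alternative. With 2 libraries per group and 0 calls in the main fit, the genes below are described by their values in each library. They are not called, and their p-values come from the main fit.

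The *X. laevis* transcripts with a symbol that were farthest apart included factors of pluripotency and of the ventral side. The highest was a transcript of *ventx2*, a homeobox factor of the BMP pathway, at 24.5 and 56.0 TPM in te x ls, against 0.106 and 0.331 TPM in *X. tropicalis* (log2 difference 4.98 ± 0.456, SE, n = 2 each, limma adjusted p = 0.0733). *X. laevis pou5f3*, a POU factor that keeps cells undifferentiated, had 26.5 and 32.8 TPM in te x ls, against 0 and 0.307 TPM in *X. tropicalis* (4.74 ± 0.266, SE, n = 2 each, limma adjusted p = 0.0609). *X. laevis sox3*, an HMG-box factor of the early ectoderm, had 23.9 and 43.4 TPM in te x ls, against 0.543 and 0.285 TPM in *X. tropicalis*. For each of these 3 transcripts the lower te x ls library was far above both *X. tropicalis* libraries, as the ranking by that gap requires. Further *X. laevis* transcripts of *ventx2* stood at 11.8 and 11.2 TPM and at 7.61 and 24.8 TPM in te x ls and were listed at 0 in both *X. tropicalis* libraries. *X. laevis id3*, an inhibitor of helix-loop-helix factors and a BMP target, had 4.46 and 23.2 TPM in te x ls and was listed at 0 in *X. tropicalis*, with te x ls replicate 3 well above replicate 1.

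Organizer and dorsal genes were among them. The homeobox gene *not*, which marks the future notochord, had an *X. laevis* transcript at 18.1 and 33.4 TPM in te x ls and listed at 0 in both *X. tropicalis* libraries, and another at 17.1 and 34.7 TPM in te x ls, against 0.360 and 0 TPM in *X. tropicalis*. *X. laevis sia2*, a target of the maternal Wnt pathway that starts the organizer, had 7.17 and 7.31 TPM in te x ls and was listed at 0 in both *X. tropicalis* libraries. *X. laevis admp*, a BMP-like ligand made in the organizer, had 8.54 and 7.99 TPM in te x ls, and *X. laevis sp5l*, a zinc finger factor of the Sp family, had 7.09 and 7.86 TPM, and both were listed at 0 in *X. tropicalis*. The transcripts of *sia2*, *admp* and *sp5l* given here had close values in te x ls replicates 1 and 3, and those of *not* were higher in replicate 3. An *X. laevis* transcript of *gsc* was also higher in replicate 3, at 1.62 and 3.58 TPM in te x ls.

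Genes of the mesoderm, endoderm and ectoderm were represented as well. *X. laevis bix3*, a Mix-like homeobox factor, had 10.6 and 8.87 TPM in te x ls, and *X. laevis sox17b*, a factor of the endoderm, had 9.49 and 16.5 TPM in te x ls. *X. laevis zic1*, a zinc finger factor of the neural plate, had 9.38 and 11.0 TPM in te x ls, and *X. laevis irx1*, an Iroquois homeobox factor, had 8.48 and 9.78 TPM. All 4 were listed at 0 in both *X. tropicalis* libraries. Among signalling genes, *X. laevis gdf3*, a TGF-beta family ligand, had 15.6 and 26.9 TPM in te x ls, *X. laevis tdgf1*, a co-receptor of Nodal, had 12.9 and 11.5 TPM, and *X. laevis cxcr4*, a chemokine receptor, had 11.8 and 14.0 TPM, all listed at 0 in *X. tropicalis*.

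Genes of general cell functions were also present. A pair of *X. laevis* transcripts of *eef1a1*, a translation elongation factor, had 16.2 and 20.6 TPM and 15.3 and 19.4 TPM in te x ls, against 0 and 0 TPM and 0.152 and 0 TPM in *X. tropicalis*. *X. laevis srsf5*, a splicing factor, had 16.8 and 41.6 TPM in te x ls, against 0.437 and 0 TPM in *X. tropicalis*. Others of this kind were *hmgb3*, a chromatin protein, at 11.9 and 15.7 TPM in te x ls and 0 and 0.530 TPM in *X. tropicalis*, and *cirbp*, a cold-inducible RNA-binding protein, at 9.56 and 10.03 TPM in te x ls and 0.135 and 0 TPM in *X. tropicalis*. The remaining members of the 25 farthest apart were *ier5l*, *klf2*, *hes2*, *rasl11b*, *rasd1*, *sbk1* and *pnrc2*, whose lower te x ls library lay between 7.32 TPM for *pnrc2* and 12.5 TPM for *ier5l* and which were all listed at 0 in *X. tropicalis*. Over the 362 transcripts, 263 (72.7%) were higher in te x ls replicate 3 than in te x ls replicate 1, with a median ratio of 1.27.

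**Figure D2:**
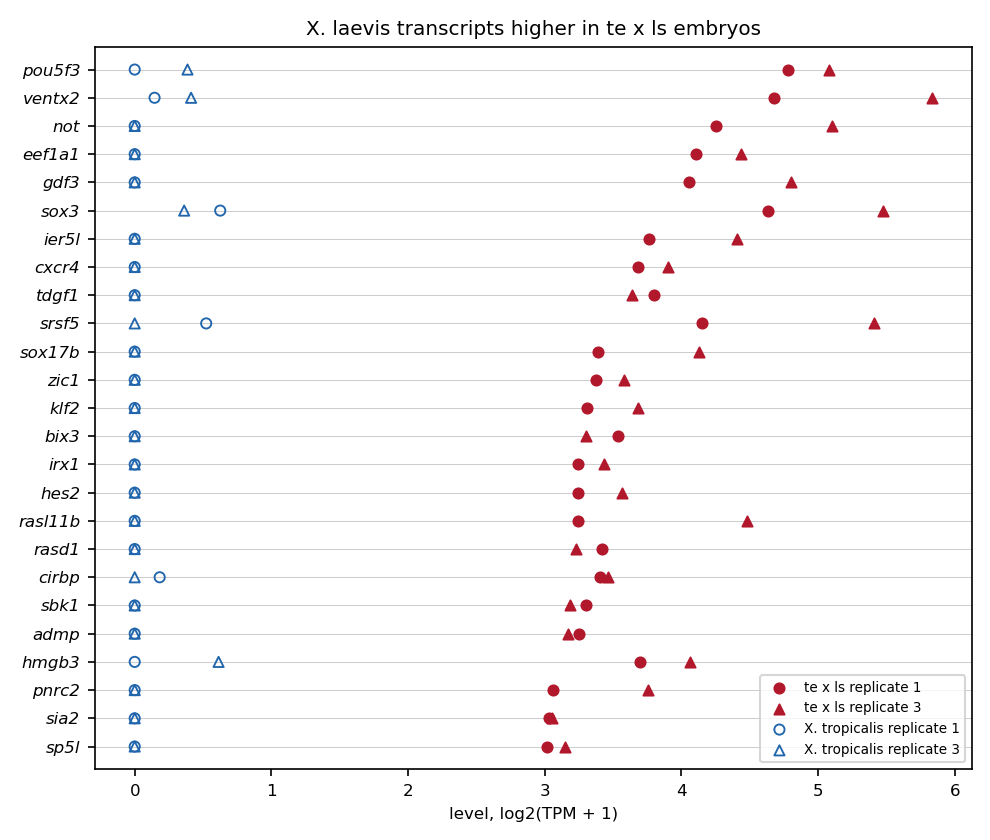
Level, log2(TPM + 1), of the 25 *X. laevis* transcripts with a symbol farthest apart between groups, with filled symbols for te x ls, open symbols for *X. tropicalis*, circles for replicate 1 and triangles for replicate 3. Every filled symbol lies to the right of the open symbols of its row, as the choice of rows requires, and most open symbols lie at 0.

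*X. laevis* embryos of the same age gave the level that these transcripts have where both egg and sperm are *X. laevis*. Of 15745 *X. laevis* transcripts that reached 1 TPM in each *X. laevis* library and in neither *X. tropicalis* library, 365 (2.32%) also reached 1 TPM in each te x ls library, which is called on in the following. The 15745 transcripts were chosen without the te x ls values. Of the 362 transcripts apart by more than 2-fold, 328 reached 1 TPM in each *X. laevis* library, and their mean level in te x ls had a median of 9.88% of that in *X. laevis* embryos (quartiles 1.93% and 37.4%), where egg RNA is included. Some transcripts were abundant in *X. laevis* embryos. *X. laevis sox3* at 23.9 and 43.4 TPM in te x ls stood at 655 and 713 TPM in *X. laevis*, and *srsf5* at 16.8 and 41.6 TPM in te x ls stood at 1295 and 1311 TPM in *X. laevis*. For 15 of the 328 transcripts the te x ls mean was at or above the *X. laevis* mean. Transcripts of the 362 that were under 1 TPM in an *X. laevis* library were left out of this count and of the median. Of the named transcripts, *irx1* had 8.48 and 9.78 TPM in te x ls, against 10.9 and 4.45 TPM in *X. laevis*.

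The share of transcripts that were on differed between 12 gene lists, which had been put together with earlier results of these data known. Of the blastula transcription factors, 53 of 104 *X. laevis* transcripts (51.0%) were on, and of the signalling ligands and antagonists 19 of 44 (43.2%), against 2.32% of all. Histones gave 17 of 36 (47.2%) and early zygotic housekeeping genes 17 of 38 (44.7%). The shares were 10 of 66 (15.2%) for genes of cell death and stress, 5 of 45 (11.1%) for germ plasm and localised maternal RNAs, and 7 of 69 (10.1%) for genes of the cleavage divisions. Lower shares were found with 10 of 258 (3.88%) for the *znf* zinc finger genes, 1 of 45 (2.22%) for egg-specific maternal genes and 3 of 174 (1.72%) for cytosolic ribosomal proteins. No test was made between lists.

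Within the list of transcription factors, several members that are present in *X. laevis* embryos were at or near 0 in te x ls. The repressor *hes7* had *X. laevis* transcripts at 70.7 and 65.5 TPM and at 31.3 and 26.4 TPM in *X. laevis* embryos, where te x ls had 0 and 0 TPM and 0.0400 and 0 TPM, while another *hes7* transcript was on at 2.31 and 2.36 TPM in te x ls. The most abundant *X. laevis pou5f3* transcripts, at 751 and 730 TPM and at 623 and 486 TPM in *X. laevis*, had 0.323 and 0.161 TPM and 0.124 and 0.211 TPM in te x ls, against the 26.5 and 32.8 TPM of the transcript above. *X. laevis fosl1*, a partner of Jun proteins, was listed at 0 in te x ls and had 16.8 and 17.4 TPM in *X. laevis*. Among ligands, *X. laevis wnt8a*, a Wnt ligand of the ventral mesoderm, was listed at 0 in te x ls and had 14.5 and 5.44 TPM in *X. laevis*. *X. laevis nodal3* was listed at 0 in te x ls and had 10.8 and 7.39 TPM in *X. laevis*. For *nodal6*, a Nodal ligand, one *X. laevis* transcript had 4.16 and 3.71 TPM in te x ls and another was listed at 0, although the second was the higher one in *X. laevis* (16.9 and 11.4 TPM, against 10.2 and 5.35 TPM for the first). How much of the level in *X. laevis* embryos is egg RNA is not known from these libraries.

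Histone and stress genes were present at low levels. The *X. laevis* histone variant *h2afz* had 8.73 and 13.3 TPM in te x ls, against 0.216 and 0 TPM in *X. tropicalis*, and *hist2h2ab* had 4.55 and 4.01 TPM in te x ls and was listed at 0 in *X. tropicalis*. In the list of cell death and stress, *X. laevis gadd45a*, a stress-induced growth arrest gene, had 6.78 and 11.0 TPM in te x ls, and *mcl1*, a survival member of the Bcl2 family, had 3.17 and 1.58 TPM in te x ls, both listed at 0 in *X. tropicalis*. The *X. laevis* transcripts of *bax* and *bak1*, effectors of apoptosis, were listed at 0 in both te x ls libraries. Of the cyclins, *ccne2* was on with 2.82 and 2.62 TPM in te x ls, against 51.1 and 53.8 TPM in *X. laevis*, and *ccna2* with 2.07 and 1.76 TPM in te x ls, against 905 and 940 TPM in *X. laevis*. Egg-specific genes such as *npm2*, *figla* and *zpd*, an egg chaperone, an oocyte transcription factor and an egg coat protein, were listed at 0 from *X. laevis* in all 4 libraries compared, at 33.5 to 157 TPM in *X. laevis* embryos.

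Sperm were released from testes, so RNA of testis and blood was looked for. Of 23 *X. laevis* transcripts of testis and sperm markers, 1 (4.35%) was on, *sox9* at 1.34 and 1.74 TPM in te x ls, against 2.32% of all. That *sox9* transcript is also counted with the *sox* family below. The *X. laevis* transcripts of the list summed to 2.96 and 3.91 TPM in te x ls, against 0.300 and 0.381 TPM in *X. tropicalis*. The sperm tail genes *odf3*, *spag16*, *rsph9* and *ropn1l* were listed at 0 in all 4 libraries. They were picked after their values were seen, and other members of the list made up its higher sum in te x ls. Of 7 transcripts of blood markers 0 were on, with a sum of 0.119 and 0.112 TPM in te x ls, against 0.142 and 0.0580 TPM in *X. tropicalis*. Other sources of *X. laevis* RNA brought in with the sperm were not tested.

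Transcripts of the egg's species were close between the groups. The median difference over the 11559 *X. tropicalis* transcripts was -0.01 on the log2 scale, and 97.5% of them differed by less than 2-fold within both numbers. For the 8230 transcripts at 10 TPM or more in all 4 libraries, the central 95% of differences ran between -0.22 and 0.23. *X. tropicalis vegt*, a maternal T-box factor of the endoderm, had 545 and 547 TPM in te x ls, against 547 and 545 TPM in *X. tropicalis*. *X. tropicalis sox3* had 1519 and 1680 TPM in te x ls, against 1548 and 1672 TPM in *X. tropicalis*, and *gmnn*, the replication inhibitor geminin, had 2331 and 2922 TPM in te x ls, against 2352 and 2878 TPM in *X. tropicalis*. The groups overlapped for all 3 genes.

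Those that stood out were mostly lower in te x ls. More than 2-fold within both numbers, 85 *X. tropicalis* transcripts (0.735%) were lower in te x ls and 3 (0.0260%) were higher. Some of the 85 were under 1 TPM in both te x ls libraries and passed the filter only through *X. tropicalis*, which fixed their direction. The 85 transcripts had a median mean level of 5.61 TPM in te x ls and 17.9 TPM in *X. tropicalis*, and 69 of them had a symbol, 67 symbols in all. In te x ls they stood at a median of 30.8% of *X. tropicalis* within number 1 (quartiles 24.1% and 36.1%) and 32.6% within number 3 (quartiles 27.0% and 37.3%), where the 8387 transcripts of the egg's species that reached 10 TPM in each *X. tropicalis* library stood at a median of 99.2% and 99.1%. The rule that chose the 85 bounded their percents from above (highest 46.7% and 48.0%), so their low medians were largely fixed in advance. By the stricter rule of groups apart by more than 2-fold, 19 (0.164%) were lower and 2 (0.0173%) higher. Leaving out 1 library loosens that rule. It gave 31 lower transcripts without te x ls replicate 1 and 144 without te x ls replicate 3. It gave 111 without *X. tropicalis* replicate 1 and 21 without *X. tropicalis* replicate 3. All 19 were among them when a te x ls library was left out and 15 when an *X. tropicalis* library was. This retention was fixed in advance, because leaving out a library cannot narrow the gap. Without an *X. tropicalis* library the filter removed the transcripts under 1 TPM in both te x ls libraries. Because te x ls embryos hold *X. tropicalis* chromosomes from the egg alone, fewer gene copies, less RNA per copy and fewer cells that express a gene cannot be told apart.

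The 12 transcripts with a symbol among the 19 were led by *ventx2*, for which one *X. tropicalis* transcript had 8.86 and 7.36 TPM in te x ls, against 23.1 and 36.2 TPM in *X. tropicalis* (log2 difference -1.72 ± 0.286, SE, n = 2 each, limma adjusted p = 0.160). *X. tropicalis sia2* had 9.11 and 11.0 TPM in te x ls, against 26.9 and 36.7 TPM in *X. tropicalis* (-1.56 ± 0.236, SE, n = 2 each, limma adjusted p = 0.137). The mesoderm factor *t*, known as Brachyury, had 0.726 and 0.905 TPM in te x ls, against 3.35 and 6.29 TPM in *X. tropicalis*, and the muscle factor *myod1* had 1.90 and 0.928 TPM in te x ls, against 6.52 and 5.84 TPM in *X. tropicalis*. For each of these 4 transcripts both te x ls libraries were below both *X. tropicalis* libraries, as the rule requires. Further *X. tropicalis* transcripts of *ventx2* had 29.5 and 76.9 TPM and 6.48 and 54.2 TPM in te x ls. In *X. tropicalis* they had 76.0 and 139 TPM and 21.3 and 86.0 TPM, and for both the groups overlapped. *X. tropicalis dusp6*, a phosphatase that dampens FGF signalling, had 13.2 and 16.7 TPM in te x ls, against 35.3 and 52.4 TPM in *X. tropicalis*. The Hes-related repressor *esr10* had 19.95 and 20.2 TPM in te x ls, against 46.1 and 42.5 TPM in *X. tropicalis*. The homeobox gene *msx2* had 0.451 and 0.771 TPM in te x ls, against 2.78 and 3.79 TPM in *X. tropicalis*, and the helix-loop-helix factor *ptf1a* had 3.01 and 4.04 TPM in te x ls, against 9.09 and 12.2 TPM in *X. tropicalis*. The others were *hes6*, *stx19*, a syntaxin, and the metabolic enzymes *gatm* and *tat*, whose te x ls libraries ran between 0.683 TPM for *gatm* and 7.90 TPM for *stx19* and whose *X. tropicalis* libraries ran between 3.13 TPM for *gatm* and 34.2 TPM for *stx19*. The transcripts of *t*, *msx2* and *gatm* reached 1 TPM only in *X. tropicalis*, so the filter fixed their direction.

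Of the 72 *X. tropicalis* transcripts of blastula transcription factors tested, 25 were more than 2-fold lower in te x ls within both numbers and 0 were higher, with a median difference of -0.77 over the list. Of 36 transcripts of signalling ligands and antagonists, 9 were lower and 0 higher, with a median of -0.91. The median over all *X. tropicalis* transcripts was -0.01, and 0.735% of them were lower by the same rule. The lower members included organizer genes. *X. tropicalis not* had 41.7 and 113 TPM in te x ls, against 135 and 318 TPM in *X. tropicalis*. *X. tropicalis gsc*, the homeobox gene of the organizer, had 3.88 and 8.89 TPM in te x ls, against 12.3 and 23.6 TPM in *X. tropicalis*. *X. tropicalis admp* had 12.9 and 24.9 TPM in te x ls, against 44.4 and 76.0 TPM in *X. tropicalis*, and *nog*, the BMP antagonist Noggin, had 5.37 and 8.37 TPM in te x ls, against 12.1 and 22.7 TPM in *X. tropicalis*. Each of the 4 was lower in te x ls than in *X. tropicalis* of the same number, as the rule requires. Each was higher in number 3 than in number 1.

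Lower members of the lists also included ventral genes and genes linked to Nodal signalling. *X. tropicalis ventx1* had 5.22 and 8.14 TPM in te x ls, against 15.2 and 24.9 TPM in *X. tropicalis*. The ligand *bmp4* had 10.2 and 17.9 TPM in te x ls, against 23.9 and 40.0 TPM in *X. tropicalis*. For *id3* the groups overlapped, with 43.8 and 118 TPM in te x ls, against 104 and 281 TPM in *X. tropicalis*. The Nodal antagonist *lefty* had 5.32 and 10.6 TPM in te x ls, against 20.5 and 41.6 TPM in *X. tropicalis*. *X. tropicalis nodal3* had 11.0 and 16.2 TPM in te x ls, against 30.8 and 39.2 TPM in *X. tropicalis*, and *mix1*, a mesendoderm homeobox gene, had 11.7 and 34.2 TPM in te x ls, against 31.1 and 98.8 TPM in *X. tropicalis*, where the groups overlapped. *X. tropicalis eomes*, a T-box factor of the mesoderm, had 6.67 and 18.1 TPM in te x ls, against 25.1 and 54.5 TPM in *X. tropicalis*.

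Among factors of the ectoderm and neural plate, 3 of the lower members are given here. *X. tropicalis zic1* had 11.2 and 26.1 TPM in te x ls, against 44.6 and 80.5 TPM in *X. tropicalis*. *X. tropicalis sox2* had 9.86 and 20.6 TPM in te x ls, against 28.4 and 46.7 TPM in *X. tropicalis*, and *dlx5*, a homeobox gene of the border of the neural plate, had 2.30 and 8.82 TPM in te x ls, against 12.8 and 34.0 TPM in *X. tropicalis*. All 3 were lower in te x ls within both numbers, as the rule requires, and in both libraries against both. In contrast, some abundant factors were close between groups. *X. tropicalis zic2* had 158 and 153 TPM in te x ls, against 160 and 167 TPM in *X. tropicalis*, and the most abundant *hes7* transcript had 451 and 501 TPM in te x ls, against 501 and 591 TPM in *X. tropicalis*.

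**Figure D3:**
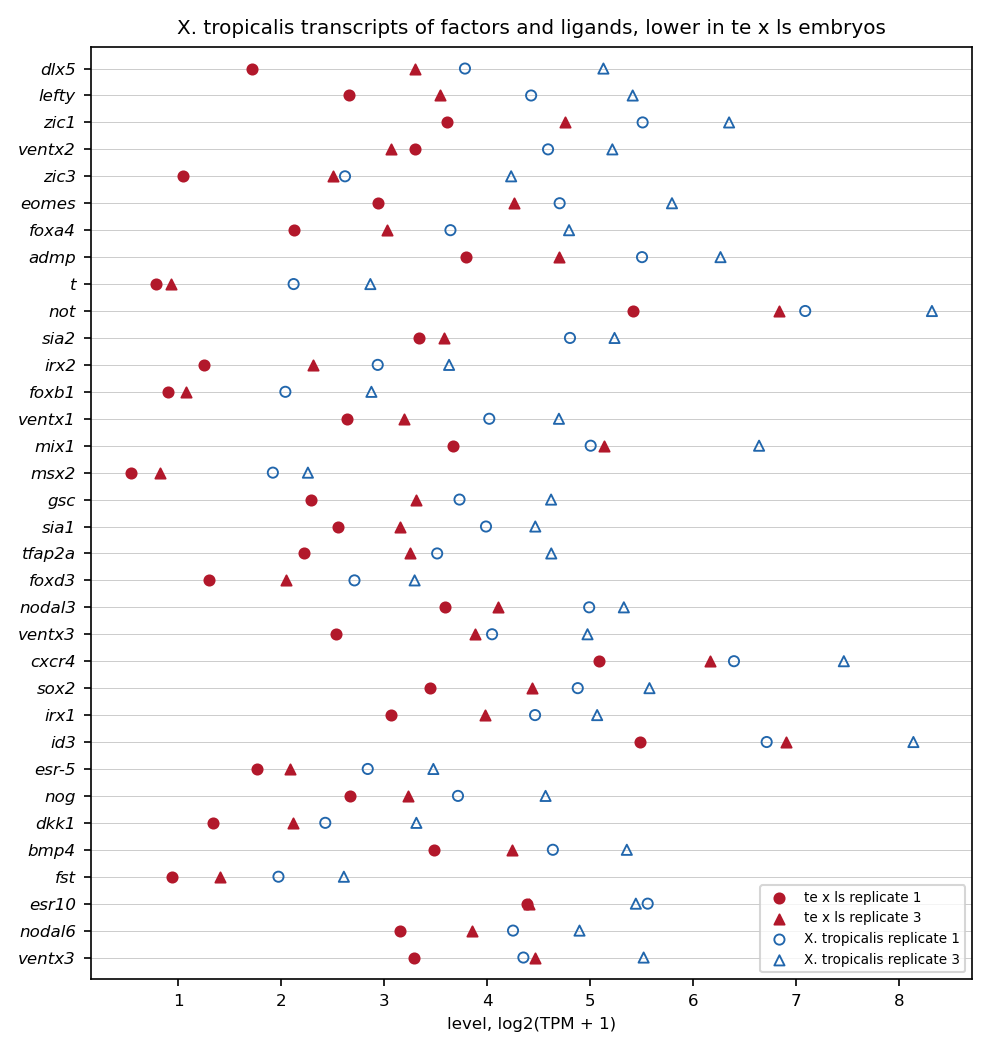
Level, log2(TPM + 1), of the 34 *X. tropicalis* transcripts of transcription factors and of signalling ligands and antagonists that were more than 2-fold lower in te x ls within both numbers, with filled symbols for te x ls, open symbols for *X. tropicalis*, circles for replicate 1 and triangles for replicate 3. In each row the filled circle lies left of the open circle and the filled triangle left of the open triangle, as the rule requires. Triangles lie right of circles in nearly every row.

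Libraries of number 3 were higher in these genes in both groups. Of the 85 transcripts, 79 (92.9%) were higher in te x ls replicate 3 than in te x ls replicate 1, with a median ratio of 2.04, and 81 (95.3%) were higher in *X. tropicalis* replicate 3 than in *X. tropicalis* replicate 1, with a median ratio of 1.77. Over all 11559 *X. tropicalis* transcripts these shares were 45.0% and 45.4%. The spread within each group was therefore large for these genes, and 7 of the 85 had overlapping groups.

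The median differences of the other lists were close to 0 in *X. tropicalis* transcripts. The 41 transcripts of the cleavage divisions had a median difference of 0.0045 and 0 were more than 2-fold lower or higher within both numbers. Cyclin *ccnb1* had 4423 and 3892 TPM in te x ls, against 4349 and 3659 TPM in *X. tropicalis*. Of 48 transcripts of cell death and stress, 1 was lower, the immediate early gene *ier2*, at 7.60 and 8.51 TPM in te x ls, against 16.3 and 21.5 TPM in *X. tropicalis*, and 0 were higher. The cell cycle inhibitor *cdkn1a* had 8.24 and 6.21 TPM in te x ls, against 4.34 and 4.25 TPM in *X. tropicalis*, with groups that did not overlap and a difference of 0.62 on the log2 scale. Over all *X. tropicalis* transcripts 7.19% were higher without overlap and 10.3% were lower. For the 88 transcripts of cytosolic ribosomal proteins the median difference was 0.13 (0.078 within number 1 and 0.17 within number 3), with 27 higher without overlap and 2 lower, and 0 more than 2-fold within both numbers. The 30 transcripts of egg-specific genes had a median of 0.064 and the 31 of germ plasm RNAs a median of -0.05, with 0 more than 2-fold lower in either list. Of the 49 histone transcripts 0 were lower or higher within both numbers, with 7 higher and 7 lower without overlap. The nearest to the rule among the higher ones named was a transcript of *hist2h3d*. It had 21.1 and 22.6 TPM in te x ls, against 10.3 and 8.89 TPM in *X. tropicalis*. Of the 29 early zygotic housekeeping transcripts 3 were lower (*gs17*, *zcchc3* and 1 of *srsf5*), and of the 215 *znf* transcripts 1 was lower (*znf665*). By the same rule 0.735% of all *X. tropicalis* transcripts were lower, so the share in the housekeeping list was above that of all.

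**Figure D4:**
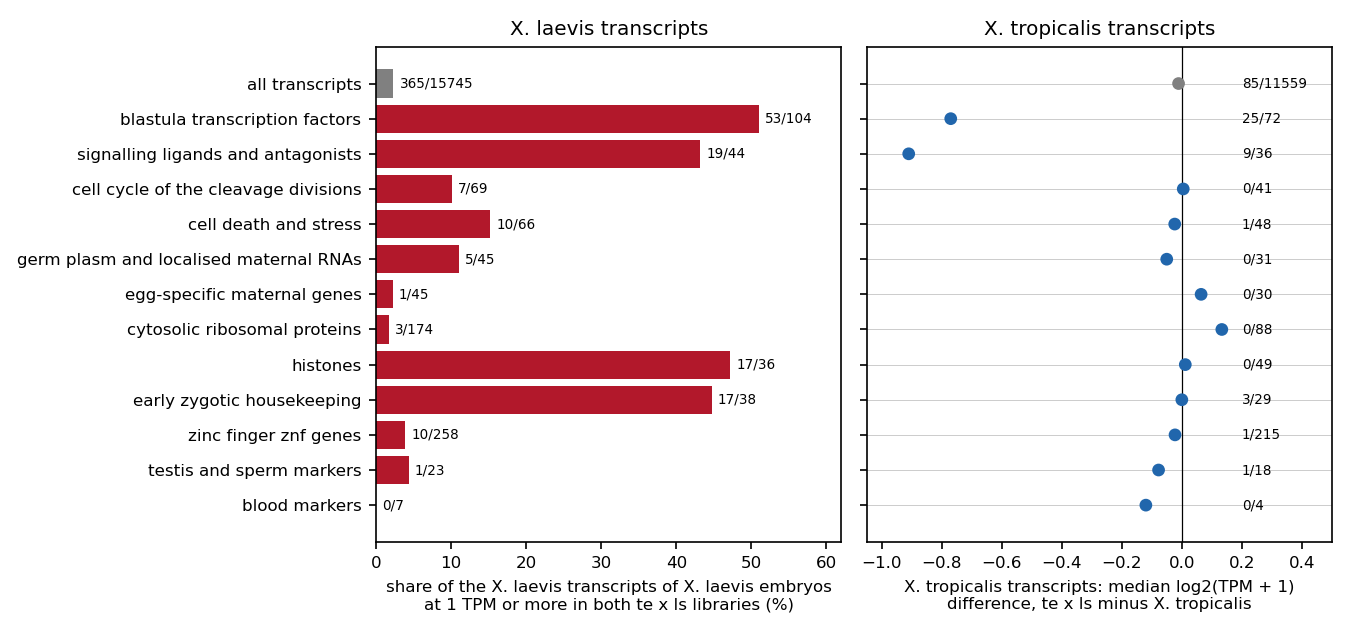
Left, the percent of the *X. laevis* transcripts of *X. laevis* embryos, by gene list, that were at 1 TPM or more in both te x ls libraries, with the number on and the number in the list beside each bar; right, the median difference of te x ls minus *X. tropicalis* over the *X. tropicalis* transcripts of each list, with the number more than 2-fold lower within both numbers and the number tested. On the left, transcription factors and ligands have 51.0% and 43.2%, and histones and early zygotic housekeeping genes have 47.2% and 44.7%. On the right, transcription factors and ligands have medians of -0.77 and -0.91, and the other lists lie near 0.

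Few *X. tropicalis* transcripts were higher in te x ls. A transcript of *hfe*, an iron regulator, had 2.44 and 1.64 TPM in te x ls and was listed at 0 in both *X. tropicalis* libraries. A transcript of *nup98*, a nuclear pore protein, had 3.34 and 4.12 TPM in te x ls, against 0.934 and 0 TPM in *X. tropicalis*. Both transcripts reached 1 TPM only in te x ls, so the filter fixed their direction. The third within both numbers was *c3ar1*, a complement receptor, at 2.19 and 10.3 TPM in te x ls, against 0.420 and 3.23 TPM in *X. tropicalis*, where the groups overlapped. The count of 2 transcripts higher and apart by more than 2-fold became 12 without te x ls replicate 1, 0 without te x ls replicate 3, 31 without *X. tropicalis* replicate 1 and 7 without *X. tropicalis* replicate 3. Neither *hfe* nor *nup98* was among the 12, and both were among the 31 and the 7. These outcomes were fixed in advance. The filter removes both transcripts when a te x ls library is left out, and leaving out an *X. tropicalis* library cannot narrow their gap.

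Genes whose *X. laevis* transcripts were higher and genes whose *X. tropicalis* transcripts were lower overlapped. Of the 67 symbols with an *X. tropicalis* transcript lower within both numbers, 57 had an *X. laevis* transcript in the table, and 36 of these (63.2%) had one apart by more than 2-fold and higher, against 232 of 9092 tested *X. tropicalis* symbols with an *X. laevis* transcript (2.55%). Taken the other way, the 36 were a part of the 232. The summed level of both species could be set against *X. tropicalis* embryos of the same number. For the 36 symbols the te x ls sum had a median of 71.7% of the *X. tropicalis* sum within number 1 and 57.4% within number 3, and it was below *X. tropicalis* within both numbers for 29 symbols and above for 1, *irx1*. *X. laevis* transcripts made up a median of 51.1% of the te x ls sum in replicate 1 and 39.9% in replicate 3. The 36 were chosen for a high *X. laevis* and a low *X. tropicalis* transcript, and both choices raise this share. For the 21 symbols with an *X. laevis* transcript in the table but none apart by more than 2-fold, the te x ls sum had a median of 40.4% and 37.0% of that in *X. tropicalis*. Both sets were chosen for a low *X. tropicalis* transcript, which by itself lowers the sum. The 21 were also chosen for having no *X. laevis* transcript apart, so the difference between the sets was partly fixed in advance. Sums for symbols not chosen by a low *X. tropicalis* transcript are given below.

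Single genes took different places in this range. For *ventx2* the *X. laevis* transcripts summed to 62.1 and 93.2 TPM and the *X. tropicalis* transcripts to 44.8 and 138 TPM in te x ls, against 120 and 261 TPM of *X. tropicalis* transcripts in *X. tropicalis* embryos, so that the te x ls sum was 88.7% and 88.5% of that in *X. tropicalis*. For *not* it was 56.8% and 56.9%, with 35.2 and 68.1 TPM from *X. laevis* and 41.7 and 113 TPM from *X. tropicalis*. For *irx1* the sum was 110% and 103%, with 16.2 and 19.3 TPM from *X. laevis* and 7.36 and 14.7 TPM from *X. tropicalis* in te x ls, against 21.1 and 32.5 TPM of *X. tropicalis* transcripts in *X. tropicalis*. For *dusp6* it was 42.6% and 35.0%, with 1.86 and 1.64 TPM from *X. laevis*. *X. laevis* transcripts of *nodal3*, *lefty* and *sia1* were listed at 0 or were not in the table under these symbols, and the te x ls sums were 35.8% and 41.4%, 25.9% and 25.6%, and 34.2% and 46.6% of those in *X. tropicalis*. For *foxh1*, a Nodal pathway factor, and *srsf5*, only 1 of the *X. tropicalis* transcripts was low, and the sums of all their transcripts were 95.9% and 89.98%, and 100% and 99.2%, of those in *X. tropicalis*.

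**Figure D5:**
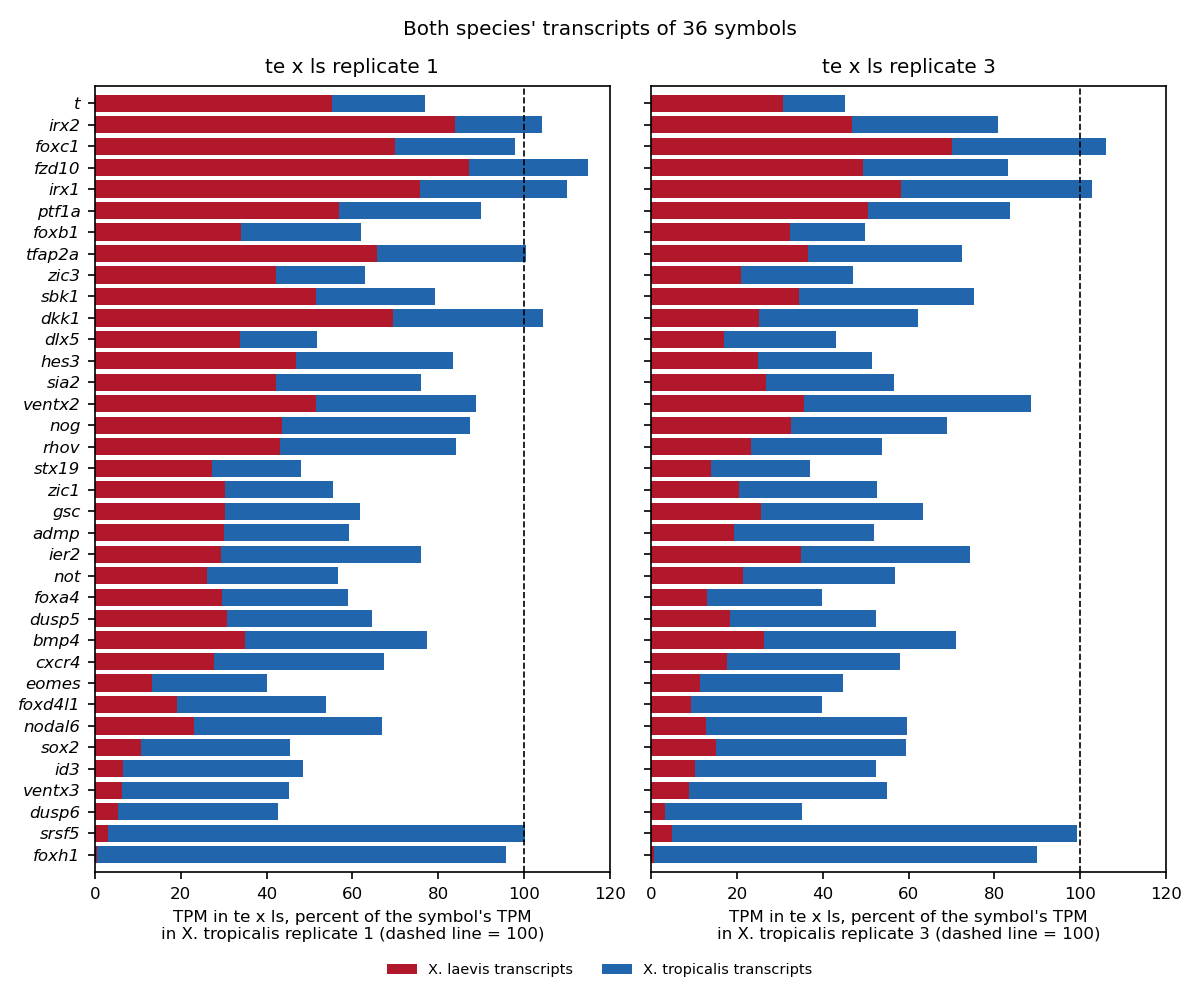
TPM of the *X. laevis* transcripts and of the *X. tropicalis* transcripts of 36 symbols in te x ls replicate 1 (left) and replicate 3 (right), stacked and given as percent of the symbol's summed TPM in *X. tropicalis* of the same number, with a dashed line at 100%. The sum lies below the line on both sides for 29 of the 36 symbols, and the *X. laevis* part is smaller on the right for most. The symbols were chosen for a low *X. tropicalis* transcript, which by itself lowers the sum.

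Seen from the sperm's side, 231 symbols had an *X. laevis* transcript apart by more than 2-fold, beside *X. tropicalis* transcripts that reached 1 TPM in *X. tropicalis* embryos. The *X. tropicalis* transcripts of 146 (63.2%) were lower in te x ls within both numbers by any amount, against 35.4% of 8833 symbols with transcripts of both species, and those of 47 (20.3%) were under 50% within both numbers, against 1.08%. The medians of the *X. tropicalis* level in te x ls were 93.8% and 90.4% of that in *X. tropicalis* for the 231 symbols, against 98.9% and 98.9% for the 8833. With both species summed, the medians were 100.4% and 97.8% for the 231 symbols, against 99.2% and 99.1% for the 8833. The 231 were chosen for a high *X. laevis* transcript, which by itself raises their sum. *X. laevis* transcripts made up a median of 7.85% and 9.18% of the te x ls sum for the 231 symbols, and over 50% in both te x ls libraries for 25. The highest summed level among those was that of *pou5f3*, with 36.2 and 50.7 TPM from *X. laevis* and 6.52 and 16.0 TPM from *X. tropicalis* in te x ls, against 11.2 and 26.04 TPM of *X. tropicalis* transcripts in *X. tropicalis*. Another was *rasd1*, a Ras-related GTPase, with 16.9 and 13.3 TPM from *X. laevis* and 2.29 and 4.88 TPM from *X. tropicalis* in te x ls, against 4.996 and 9.31 TPM in *X. tropicalis*. *X. tropicalis* transcripts of both genes were lower in te x ls within both numbers. The species were matched by symbol alone. For *pou5f3* several *X. laevis* transcripts were summed beside a single *X. tropicalis* transcript, and whether these sums cover the same genes was not tested. At the other end, *X. laevis eef1a1* transcripts summed to 31.7 and 40.4 TPM beside 706 and 878 TPM of *X. tropicalis eef1a1* in te x ls, against 659 and 849 TPM of *X. tropicalis eef1a1* in *X. tropicalis* embryos.

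Symbol families were counted in the same way, and these 8 families were picked after their values were seen, so their counts are a description only. Over all transcripts 2.32% of the *X. laevis* transcripts were on, and 0.735% of those of *X. tropicalis* were lower by more than 2-fold within both numbers. Of the *X. laevis* transcripts that reached 1 TPM in each *X. laevis* library and in neither *X. tropicalis* library, 5 of 5 of the *zic* family and 2 of 2 of the *irx* family were on, and 3 of 5 *zic* and 2 of 3 *irx* transcripts of *X. tropicalis* were more than 2-fold lower within both numbers. Of the *sox* factors 12 of 21 *X. laevis* transcripts were on, from 7 symbols, and 1 of 12 *X. tropicalis* transcripts was lower. Members that were not on included *sox7* and *sox15*, with *X. laevis sox7* at 0 and 0.0580 TPM in te x ls, against 154 and 56.6 TPM in *X. laevis*. Of the *hes* and *esr* repressors 8 of 21 were on and 4 of 12 *X. tropicalis* transcripts were lower, with a median difference of -1.04. The *hmg* chromatin proteins had 8 of 15 on with 0 of 8 *X. tropicalis* transcripts lower, the *hnrnp* RNA-binding proteins 7 of 35 on with 0 of 24 lower, the *fzd* Wnt receptors 5 of 19 on with 1 of 9 lower, and the *dusp* phosphatases 3 of 20 on with 2 of 18 lower.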

How the data were processed

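Whole embryos at 9 h post-fertilization were sequenced as polyadenylated RNA. For the table the authors used Bowtie against the joined transcripts of both species, allowing no mismatch and ignoring reads with more than 1 target, and deposited TPM estimated with RSEM, while the submitters' processing notes name BWA 0.7.10. By these settings reads identical in both species would be ignored, although *X. laevis* transcripts keep some signal in *X. tropicalis* embryos. The species, symbols and identifiers of the transcripts are those of the database. The study's edgeR test needs counts and was not repeated, since TPM keeps no depth.

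Groups came from the sample labels, with 2 libraries per group, numbered 1 and 3, where the series text speaks of more replicates. TPM was put on log2(TPM + 1), a transcript entered if it reached 1 TPM in 2 or more of these 4 libraries, and limma 3.58.1 in R 4.3.3 (lmFit, eBayes with a mean trend) was fitted to the 4 libraries, with Benjamini-Hochberg adjustment over both species and calls at an adjusted p under 0.05 with an absolute log2 difference above 1. The script was tested on simulated data. Counts of transcripts apart by more than 2-fold, or more than 2-fold within both numbers, carry no test. The genes named were the 25 *X. laevis* transcripts with the widest gap between groups, up to 20 *X. tropicalis* transcripts lower and 10 higher by that gap with 1 transcript per symbol, the members of 12 gene lists (3 built from symbol patterns) and the counterparts in the other species; genes of the lists named for being at or near 0, unchanged or paired between species were chosen after their values were seen. The members and lists were chosen with earlier results of these data known. No genome annotation was used here, so positions and sequences of the transcripts are not given. Alternatives were pseudocounts of 0.1 and 0.5, other filters, quantile normalization, rescaling to the egg's species, other fits and adjustments, the replicate number as a block, and leaving out each library.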

Additional observations from a re-analysis of the deposited data

How the results depend on the processing

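The labels do not say what libraries of the same number share. The deviations of same-numbered libraries from their group means correlated at r = 0.842 across all transcripts tested (0.858 for *X. tropicalis* transcripts), as a description with 2 pairs. With the replicate number as a block limma called 327 *X. laevis* transcripts higher, 122 *X. tropicalis* transcripts lower and 5 higher, where the fit without it called 0 of each. Called *X. laevis* transcripts numbered 389 with adjustment within each species, 131 with all 8 libraries in 1 fit, 183 without the mean trend, 229 with a pseudocount of 0.1 and 26 with 0.5, and 0 to 30 with 1 library left out. *X. tropicalis* transcripts called lower numbered 2 with all 8 libraries in 1 fit, and 1 was called higher with a pseudocount of 0.1.

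*X. laevis* transcripts at the detection level only in te x ls numbered 399 at 1 TPM (3 with the groups exchanged), 664 at 0.5 TPM and 67 at 5 TPM (0 exchanged); leaving out a library gave 5 to 35 exchanged. *X. laevis* transcripts apart by more than 2-fold, and those higher within both numbers, numbered 67 each with a filter of 5 TPM, and leaving out a library gave 2 to 382 apart. *X. tropicalis* transcripts apart and lower numbered 54 with a pseudocount of 0.1, 38 with 0.5, 33 with quantile normalization and 21 to 144 with a library left out; those lower within both numbers numbered 147 with a pseudocount of 0.1. *X. tropicalis* transcripts apart and higher numbered 6 with a pseudocount of 0.1, 0 with a filter of 5 TPM and 0 to 31 with a library left out, and those higher within both numbers 13 with 0.1, 7 with 0.5 and 0 with the filter. The difference in the *X. laevis* share of TPM was 0.162 to 0.268 with a library left out. A single named transcript changed direction, an *X. tropicalis* transcript of *ventx2* that was lower with all 4 libraries, without a call, and had a difference of 0.33 on the log2 scale without te x ls replicate 1 and of -2.56 without te x ls replicate 3. Counts within both numbers need all 4 libraries and were not made with a library left out. Depth is unknown in TPM, and levels near 1 TPM are the least certain.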
